A study of Mus musculus with 59 samples.

Results

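Brain endothelial and blood-brain barrier genes were followed through 59 mouse prefrontal cortex libraries. The members are 10 of the 18088 genes in the deposited table, taken by symbol: the receptors Flt1, Kdr and Tek, the junction and adhesion genes Cldn5, Esam, Pecam1 and Icam2, the transporters Abcb1a and Mfsd2a, and Rgs5. All 10 passed the filter on low values that left 17875 genes to test. The mice were C57BL/6J animals of both sexes, analysed at postnatal day 25, and either wild type (WT) or heterozygous for Ash1l (HT), which encodes a histone methyltransferase. They had received vehicle, the antidepressant fluoxetine or the mood stabiliser lithium from postnatal day 3 to 24, as nursing pups exposed by way of maternal milk. Each of the 12 combinations of genotype, drug and sex held 5 libraries, except HT lithium females with 4. Neither the Ash1l allele, the doses nor the vehicle's composition is given in the sources used here.

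The blood-brain barrier is formed by endothelial cells that line the capillaries of the brain. Tight junctions seal the gaps between these cells, transporters move selected molecules or pump others back into the blood, and vesicle traffic across the cells is kept low. Vascular endothelial growth factor (VEGF) and angiopoietins act on endothelial receptors during vessel growth, Wnt signals from the surrounding tissue keep the barrier programme active, and pericytes cover the outer vessel wall. Of the members, Rgs5 is best known as a pericyte marker, so the set joins endothelial genes with 1 gene of mural cells.

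Per kilobase of exon, Rgs5 had the highest mean level over the 59 libraries, 875 ± 145 (SD) normalised reads per kilobase, followed by Cldn5 at 709 ± 131 and Mfsd2a at 390 ± 58.7. Abcb1a (210 ± 21.4), Esam (165 ± 23.5) and Flt1 (127 ± 18.0) lay in the middle on this scale. Pecam1 (104 ± 13.8), Tek (103 ± 16.3), Kdr (79.1 ± 16.0) and Icam2 (38.9 ± 8.91) were lowest. All other levels below are normalised read counts per gene, which compare libraries but not genes. Icam2 had the fewest reads of the set, 37 in its lowest library, so no member was at 0 anywhere.

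The promoter windows of 7 members were found in the RefSeq table for GRCm38.p6, each with 250 bases before and 50 after the annotated start. The 5 below belong to genes that fell with both drugs, and Mfsd2a is shown beside them because its level did not fall. They are given 5′ to 3′ on the strand of the gene, and capitals mark matches to the motifs searched on both strands.
Flt1 chr5:147725962-147726261 (minus strand): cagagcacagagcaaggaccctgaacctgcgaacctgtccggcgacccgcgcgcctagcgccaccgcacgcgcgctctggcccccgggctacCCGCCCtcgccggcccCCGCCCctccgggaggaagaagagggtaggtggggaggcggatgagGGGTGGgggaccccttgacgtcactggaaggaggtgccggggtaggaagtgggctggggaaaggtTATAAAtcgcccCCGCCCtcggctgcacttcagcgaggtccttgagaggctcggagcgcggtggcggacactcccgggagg
Kdr chr5:75978406-75978705 (minus strand): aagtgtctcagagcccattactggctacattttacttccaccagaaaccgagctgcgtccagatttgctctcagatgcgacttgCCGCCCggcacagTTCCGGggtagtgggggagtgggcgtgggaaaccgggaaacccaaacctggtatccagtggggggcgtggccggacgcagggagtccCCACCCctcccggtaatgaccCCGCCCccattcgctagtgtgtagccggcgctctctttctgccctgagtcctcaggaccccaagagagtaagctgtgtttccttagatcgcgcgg
Tek chr4:94739039-94739338 (plus strand): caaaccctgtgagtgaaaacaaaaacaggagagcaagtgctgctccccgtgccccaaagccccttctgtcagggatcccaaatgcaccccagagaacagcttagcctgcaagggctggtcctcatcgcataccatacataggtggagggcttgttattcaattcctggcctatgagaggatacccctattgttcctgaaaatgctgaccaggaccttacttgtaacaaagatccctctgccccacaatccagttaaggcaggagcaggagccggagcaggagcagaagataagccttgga
Cldn5 chr16:18776597-18776896 (plus strand): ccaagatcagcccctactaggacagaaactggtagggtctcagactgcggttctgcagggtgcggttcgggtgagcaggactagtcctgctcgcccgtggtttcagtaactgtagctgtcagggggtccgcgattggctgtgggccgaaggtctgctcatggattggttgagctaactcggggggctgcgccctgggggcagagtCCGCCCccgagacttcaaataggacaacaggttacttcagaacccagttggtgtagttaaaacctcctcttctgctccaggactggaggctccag
Rgs5 chr1:169655251-169655550 (plus strand): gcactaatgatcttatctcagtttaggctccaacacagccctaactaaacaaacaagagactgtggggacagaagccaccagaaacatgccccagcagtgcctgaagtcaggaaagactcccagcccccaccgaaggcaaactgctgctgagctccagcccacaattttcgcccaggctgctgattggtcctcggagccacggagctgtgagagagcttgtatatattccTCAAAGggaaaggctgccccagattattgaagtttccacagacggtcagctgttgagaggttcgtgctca
Mfsd2a chr4:122961139-122961438 (minus strand): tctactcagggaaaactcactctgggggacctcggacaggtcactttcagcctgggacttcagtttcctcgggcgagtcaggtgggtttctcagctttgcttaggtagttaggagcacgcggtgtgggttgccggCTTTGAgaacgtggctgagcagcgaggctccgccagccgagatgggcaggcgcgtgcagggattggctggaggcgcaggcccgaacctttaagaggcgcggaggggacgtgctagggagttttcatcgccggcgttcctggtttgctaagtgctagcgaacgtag
The window of Flt1 held the TATA motif TATAAA at -31 from the start, 3 matches to the GC box GGGCGG and 1 to the CACCC motif CCACCC. In Kdr there were 2 GC boxes, 1 CACCC motif and 1 match to the ETS motif CCGGAA. Cldn5 held 1 GC box. Rgs5 and Mfsd2a each held 1 match to the TCF/LEF motif CTTTGA, at -20 and -115, and Tek held none of the motifs. No match of the second ETS form CAGGAAG, the SOX motif ACAATGG or the FOX motif TGTTTAC lay in these 6 windows, and none of the matches overlapped another. Of the 32851 windows in the table, 35.7% held the GC box, 31.5% CCACCC, 16.0% CTTTGA, 14.9% CCGGAA, 13.6% TATAAA, 13.3% CAGGAAG, 3.66% ACAATGG and 3.65% TGTTTAC. GC content ran from 52.0% in Tek to 70.7% in Flt1, against a median of 52.7% for all windows. Pecam1, Esam and Icam2 are named only, and the window of Abcb1a is not shown.

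Read totals lay between 24.47 and 36.32 M reads per library, with a median of 27.98 M. Ash1l, the targeted gene, was lower in HT than in WT mice by the mean of the 6 drug and sex strata, with a log2 fold change of -0.31 ± 0.023 (standard error; limma, adjusted p = 6.49e-15). Its normalised count was 3641 to 4382 in the HT libraries and 4703 to 6218 in the WT libraries, except for a count of 3557 in 1 library, that labelled WT vehicle female replicate 3. That library also stood apart in composition. Its summed neuron markers (199619) and astrocyte markers (109394) were the lowest of the 59 libraries. Its summed oligodendrocyte (271102), mural (9927) and choroid plexus (7812) markers were the highest, the next choroid plexus sum being 1245. It also had the highest summed count of the 10 members, 15188, so comparisons that use it are given without it as well where a call or an order changed. No label ties a library to a litter or dam, so the p-values measure the spread between these libraries only.

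Among the members, the ratio of the highest to the lowest of the 12 group means ran from 1.20 for Abcb1a to 1.88 for Icam2. The WT vehicle females were the highest group for 8 members, all but Rgs5 (highest in WT vehicle males, 4759 ± 622) and Mfsd2a (highest in WT fluoxetine females, 994 ± 103). Without replicate 3 they were highest for 6 members: Abcb1a averaged 1151 ± 102 there, against 1207 ± 142 in WT fluoxetine females, and Pecam1 719.0 ± 38.2, against 719.9 ± 108 in HT vehicle females. When the 12 groups were ordered by mean, neighbours mostly lay within the larger of their SDs. The exceptions were 1 pair each for Cldn5 and Icam2, whose WT vehicle females stood above the next group, and 1 for Abcb1a, whose HT fluoxetine females (1016 ± 49.5) stood below it. The mean of the centred log2 values of the 10 members was highest in WT vehicle females, 0.28 ± 0.140, and lowest in HT fluoxetine males, -0.15 ± 0.118. The 4 highest libraries by this mean were all WT vehicle females, led by replicate 3 at 0.52, and without that library the group's mean was still the highest at 0.22 ± 0.0532.

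**Figure D1:**
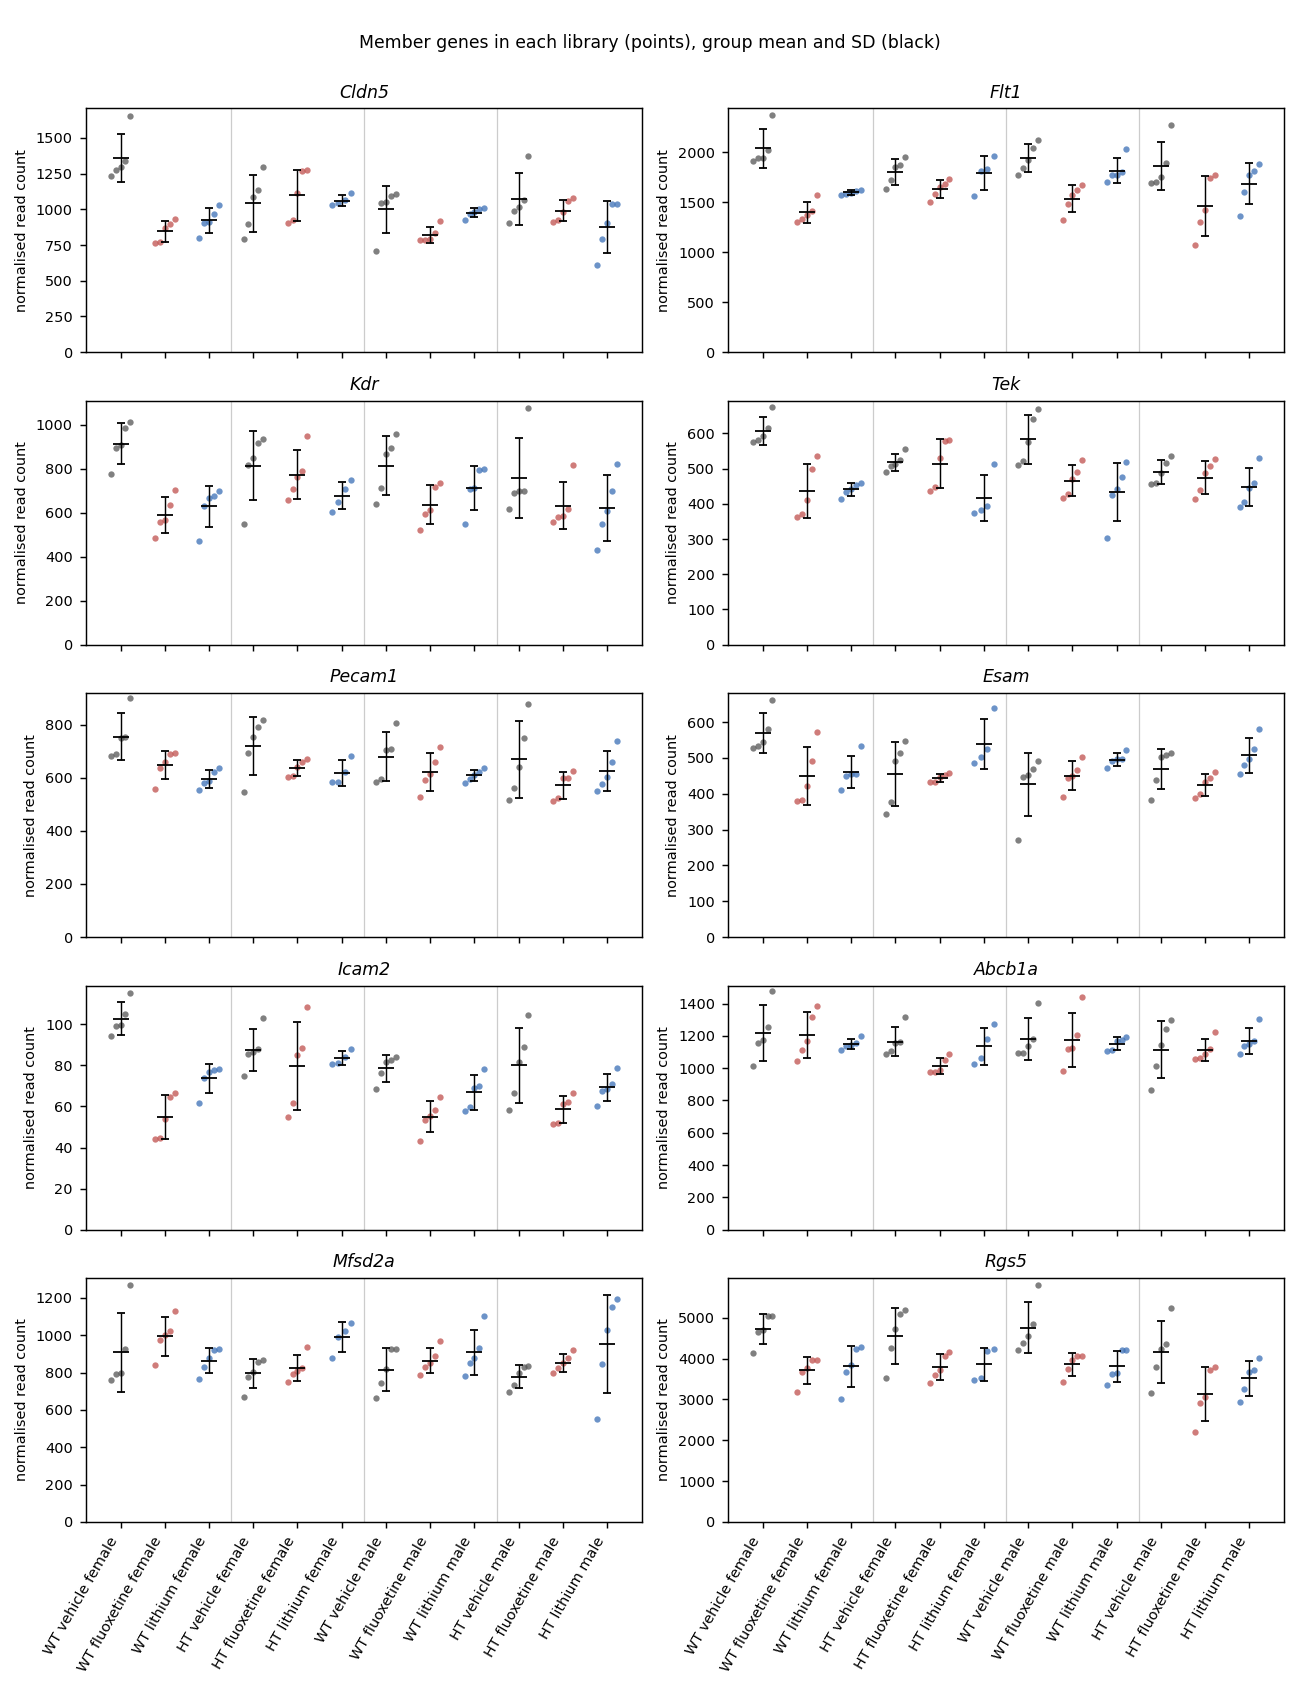
Normalised read count (linear axis from 0) of each member in each of the 59 libraries, by group; points are libraries spread in order of value, and black marks the group mean with its SD. Grey, red and blue points are vehicle, fluoxetine and lithium. The WT vehicle females lie highest for 8 members (6 without replicate 3), and the Flt1 and Rgs5 points of fluoxetine lie low in every stratum.

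Both drugs were accompanied by lower levels of most of the set. By the mean of the 4 genotype and sex strata, 7 of the 10 members fell with fluoxetine, where 6.6% of all genes tested fell and 6.94% rose. The same count, 7 of 10, fell with lithium, where 5.74% of all genes fell and 7.39% rose. The 7 were in both cases Flt1, Kdr, Tek, Cldn5, Pecam1, Icam2 and Rgs5, and no member rose, by limma and by edgeR. DESeq2 called the same 7 with each drug and also Mfsd2a as higher with lithium. The transporters Abcb1a and Mfsd2a and the junction gene Esam did not pass with either drug by limma. Both comparisons use the same 20 vehicle libraries, so they are not independent of each other. The median log2 fold change of the 10 was -0.23 with fluoxetine and -0.20 with lithium, against medians over all genes of 0.0072 and 0.0039. In whole tissue, fewer cells of a type and less RNA per cell cannot be told apart.

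**Figure D2:**
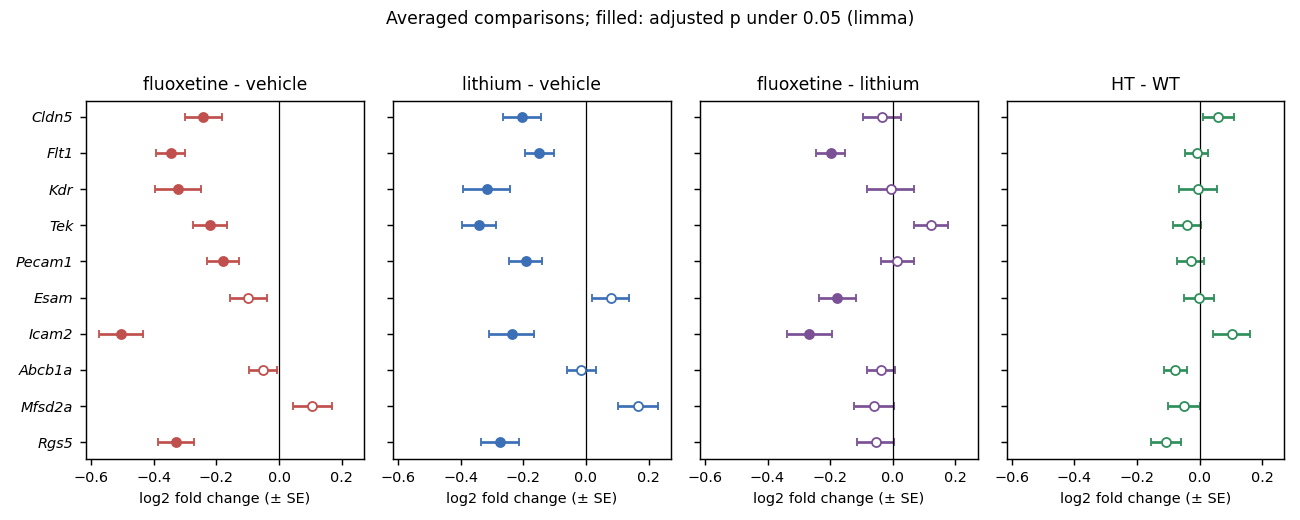
Log2 fold change with its standard error for each member (rows) in 4 averaged comparisons: fluoxetine against vehicle, lithium against vehicle, fluoxetine against lithium, and HT against WT. Filled points passed an adjusted p of 0.05 (limma); 7 are filled for each drug against vehicle, 3 for fluoxetine against lithium and 0 for genotype.

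Flt1 (ENSMUSG00000029648, chr5:147561604-147726011, minus strand) encodes VEGF receptor 1, which binds VEGF tightly and limits how much reaches the main signalling receptor. Its count ran from 1629 to 2372 with vehicle (median 1899, n = 20), from 1075 to 1776 with fluoxetine (median 1535, n = 20) and from 1364 to 2027 with lithium (median 1772, n = 19). The ranges overlapped, yet every fluoxetine library lay below the vehicle mean of its own stratum, 20 of 20. Flt1 fell with fluoxetine by 0.35 on the log2 scale (± 0.046, limma, adjusted p = 6.37e-07). With lithium it fell by 0.15 (± 0.046, adjusted p = 0.0249), in 14 of 19 libraries. The lithium call was lost without HT lithium female replicate 3 (adjusted p = 0.0571). In WT females the 5 vehicle counts were 1944, 1939, 2372, 1907 and 2018, the fluoxetine counts 1573, 1414, 1375, 1332 and 1302, and the lithium counts 1584, 1574, 1624, 1589 and 1615. Neither drug group overlapped the vehicle group there. WT males had 1937 ± 140 with vehicle, 1534 ± 136 with fluoxetine and 1815 ± 124 with lithium. The HT female means were 1803 ± 128, 1629 ± 90.9 and 1790 ± 169 in the same order, and the HT male means 1862 ± 241, 1464 ± 298 and 1686 ± 207. Fluoxetine was thus the lowest of the 3 treatments for Flt1 in each of the 4 strata.

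Kdr (ENSMUSG00000062960, chr5:75932827-75978458, minus strand) encodes VEGF receptor 2, the main signalling receptor of endothelial cells. Vehicle libraries ran from 548 to 1076 (median 857), fluoxetine libraries from 486 to 947 (median 626) and lithium libraries from 429 to 818 (median 677). These ranges overlapped widely, with 18 of 20 fluoxetine and 18 of 19 lithium libraries below their stratum's vehicle mean. Kdr fell by 0.32 with fluoxetine (± 0.074, limma, adjusted p = 0.00231) and by 0.32 with lithium (± 0.075, adjusted p = 0.00281). The WT vehicle females had 905, 985, 1011, 892 and 773, against 636, 555, 702, 486 and 565 with fluoxetine and 677, 630, 667, 470 and 698 with lithium. Here too both drug groups lay wholly below vehicle. In the other strata the vehicle means were 813 ± 133 (WT males), 813 ± 156 (HT females) and 756 ± 182 (HT males). The corresponding means were 636 ± 88.6, 773 ± 110 and 631 ± 107 with fluoxetine, and 712 ± 101, 677 ± 62.8 and 621 ± 148 with lithium. All 6 of these drug means were below the vehicle mean of their stratum, by less than the larger SD in 5 cases.

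Tek (ENSMUSG00000006386, chr4:94739289-94874976, plus strand) encodes the angiopoietin receptor, which holds vessels in a quiescent state. It ran from 456 to 674 with vehicle (median 529), from 364 to 581 with fluoxetine (median 479) and from 303 to 530 with lithium (median 444). Unlike Flt1, it had its larger difference with lithium, -0.34 ± 0.055 (limma, adjusted p = 1.86e-05), with 18 of 19 libraries below their vehicle mean. With fluoxetine it fell by 0.22 (± 0.054, adjusted p = 0.00429), in 15 of 20 libraries. The direct difference between the drugs for Tek was 0.12 ± 0.055 (fluoxetine minus lithium, adjusted p = 0.131) and did not pass. WT vehicle females had 615, 575, 674, 582 and 593, fluoxetine females 535, 500, 372, 412 and 364, and lithium females 444, 461, 432, 414 and 454, without overlap with vehicle for either drug. The HT female mean with fluoxetine, 514 ± 70.2, was close to that with vehicle, 518 ± 24.3, while that with lithium was 416 ± 65.3. In WT males the 3 means were 583 ± 70.5, 466 ± 44.5 and 434 ± 81.1, and in HT males 490 ± 34.3, 474 ± 47.6 and 447 ± 54.2. Lithium was the lowest of the 3 treatments in every stratum but WT females, where the fluoxetine mean (437 ± 77.1) and the lithium mean (441 ± 18.3) were alike.

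Cldn5 (ENSMUSG00000041378, chr16:18776847-18778262, plus strand) encodes claudin 5, the main sealing protein of brain endothelial tight junctions. With vehicle it ran from 709 to 1654 (median 1087), with fluoxetine from 763 to 1274 (median 914) and with lithium from 611 to 1111 (median 982). It fell by 0.24 with fluoxetine (± 0.060, limma, adjusted p = 0.00502; 16 of 20 libraries below their vehicle mean) and by 0.21 with lithium (± 0.061, adjusted p = 0.0171; 13 of 19). The widest gap was in WT females, where the vehicle counts were 1273, 1295, 1654, 1340 and 1235. The fluoxetine females of that genotype had 929, 866, 768, 763 and 899, and the lithium females 967, 908, 905, 800 and 1033. No library of either drug reached the lowest vehicle library. In HT females the order differed, with 1041 ± 199 on vehicle, 1097 ± 179 on fluoxetine and 1061 ± 35.7 on lithium. Over all genes, Spearman's rho of the fold change with GC content was 0.42 with fluoxetine and 0.48 with lithium in HT females. The HT female values of Cldn5 with that trend removed are not given here. WT males had 999.5 ± 165, 821 ± 57.3 and 977 ± 32.8, and HT males 1070 ± 180, 991 ± 74.3 and 875 ± 180. With the WT female stratum left out, Cldn5 no longer passed for fluoxetine (-0.09, adjusted p = 0.401) or lithium (-0.09, adjusted p = 0.402).

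Icam2 (ENSMUSG00000001029, chr11:106377656-106388075, minus strand), an adhesion molecule for leukocytes that resting endothelium displays, had the largest fluoxetine difference of the set. Its counts were low, from 58.3 to 115 with vehicle (median 86.1), from 43.3 to 108 with fluoxetine (median 59.7) and from 57.6 to 88.2 with lithium (median 73.7). Icam2 fell by 0.50 with fluoxetine (± 0.071, limma, adjusted p = 2.19e-06), in 18 of 20 libraries, and by 0.24 with lithium (± 0.072, adjusted p = 0.0204), in 17 of 19. WT vehicle females had 99.3, 105, 115, 94.3 and 99.5, WT fluoxetine females 64.6, 44.1, 66.7, 53.7 and 44.5, and WT lithium females 76.9, 73.7, 77.8, 61.7 and 78.5. Neither drug group overlapped the vehicle group, and the fluoxetine group lay lowest by its mean. WT males had 78.6 ± 6.45, 55.1 ± 7.76 and 66.9 ± 8.43, in which fluoxetine again lay wholly below vehicle. HT females ranged most within a group, with 54.7, 61.8, 108, 85.2 and 88.3 on fluoxetine, around a mean of 79.7 ± 21.6 against 87.6 ± 10.2 on vehicle. The HT male means were 80.1 ± 18.4, 58.6 ± 6.57 and 69.3 ± 6.68.

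Pecam1 (ENSMUSG00000020717, chr11:106654217-106750628, minus strand), an adhesion molecule at contacts between endothelial cells, differed less. It ran from 517 to 899 with vehicle (median 708), from 511 to 715 with fluoxetine (median 621) and from 549 to 739 with lithium (median 601). It fell by 0.18 with fluoxetine (± 0.051, limma, adjusted p = 0.0155; 19 of 20 libraries below their vehicle mean) and by 0.19 with lithium (± 0.052, adjusted p = 0.00968; 17 of 19). No single stratum of Pecam1 passed by limma, while DESeq2 called it lower with lithium in WT females (-0.34, adjusted p = 0.0297). Its stratum values were all below 0, between -0.22 and -0.13 with fluoxetine and between -0.33 (WT females) and -0.08 (HT males) with lithium. Without the WT female stratum, Pecam1 no longer passed by limma for fluoxetine (-0.17, adjusted p = 0.0649) or lithium (-0.15, adjusted p = 0.0829).

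Esam (ENSMUSG00000001946, chr9:37528078-37538319, plus strand), a junction-associated adhesion molecule of endothelium and platelets, passed against vehicle with neither drug. Its values were -0.10 ± 0.058 with fluoxetine (limma, adjusted p = 0.272) and 0.08 ± 0.059 with lithium (adjusted p = 0.404). The counts ran from 272 to 661 with vehicle (median 498), from 381 to 572 with fluoxetine (median 444) and from 411 to 639 with lithium (median 496). The signs differed between strata. With lithium the WT female value was -0.30, while WT males (0.25), HT females (0.26) and HT males (0.12) had values above 0. Spearman's rho of the fold change with GC content over all genes was -0.37, 0.31, 0.48 and 0.10 in these strata in turn. The stratum values of Esam with that trend removed are not given here. Without the WT female stratum the Esam value with lithium was 0.21 (adjusted p = 0.0271), a split made after the values were seen. It leaves out the only stratum with a value below 0, so it is no support for a rise. The lowest Esam library of all, at 272, was WT vehicle male replicate 2.

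Mfsd2a (ENSMUSG00000028655, chr4:122946850-122961188, minus strand) encodes the carrier of lysophosphatidylcholine lipids that also restrains vesicle traffic across the barrier. It was the only member with values above 0 for both drugs, 0.11 ± 0.063 with fluoxetine (limma, adjusted p = 0.266) and 0.17 ± 0.064 with lithium (adjusted p = 0.0714), neither past the threshold. By DESeq2 the lithium difference of Mfsd2a was 0.17 with an adjusted p of 0.0475, past the threshold. Its counts ran from 665 to 1270 with vehicle (median 802), from 750 to 1129 with fluoxetine (median 849) and from 549 to 1193 with lithium (median 921). The highest vehicle count, 1270, came from the library labelled WT vehicle female replicate 3, and the other 4 of that group were 795, 924, 799 and 758. Without that library Mfsd2a rose with lithium by 0.20 (adjusted p = 0.0175), and with fluoxetine its value was 0.14 (adjusted p = 0.0948). In HT females the lithium counts of 1063, 1022, 992 and 878 all lay above the vehicle counts of 670, 859, 865, 776 and 805, as did those of 4.13% of all genes tested. Spearman's rho of the fold change with GC content over all genes was 0.48 there. The Mfsd2a value with that trend removed is not given here. The HT male lithium group spread most, with 1153, 1028, 1193, 848 and 549, and without the last of these, replicate 5, the lithium value was 0.21 (adjusted p = 0.00495). The libraries left out here held the highest vehicle count and the lowest lithium count of Mfsd2a. Leaving out either favours a rise by its choice, so these refits are no support for one.

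Abcb1a (ENSMUSG00000040584, chr5:8660077-8748575, plus strand) encodes the efflux pump P-glycoprotein, which returns many drugs to the blood. It was the most even member, from 863 to 1481 with vehicle (median 1156), from 977 to 1442 with fluoxetine (median 1100) and from 1025 to 1307 with lithium (median 1150). Its differences were -0.05 ± 0.045 with fluoxetine (limma, adjusted p = 0.473) and -0.01 ± 0.045 with lithium (adjusted p = 0.873). The closely related Abcb1b was at 37.6 to 94.0, and how reads shared by the 2 genes were split is uncertain. Of the stratum values of Abcb1a, the farthest from 0 was -0.19 ± 0.089 in HT females with fluoxetine (adjusted p = 0.632).

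Rgs5 (ENSMUSG00000026678, chr1:169655501-169695813, plus strand), a regulator of G-protein signalling in pericytes, fell by 0.33 with fluoxetine (± 0.058, limma, adjusted p = 9.68e-05) and by 0.27 with lithium (± 0.059, adjusted p = 0.00108). Every drug-treated library lay below the vehicle mean of its stratum, 20 of 20 with fluoxetine and 19 of 19 with lithium. The counts ran from 3168 to 5793 with vehicle (median 4612), from 2192 to 4161 with fluoxetine (median 3743) and from 2927 to 4274 with lithium (median 3675). Thus the highest drug-treated library, at 4274, lay below the vehicle median, although the ranges overlapped. WT females had 4720 ± 373 with vehicle, 3712 ± 326 with fluoxetine and 3811 ± 510 with lithium. WT males had 4759 ± 622, 3860 ± 273 and 3811 ± 386, and HT females 4561 ± 683, 3791 ± 318 and 3857 ± 411. HT males were lowest throughout, at 4158 ± 764, 3138 ± 658 and 3517 ± 427. The stratum values of Rgs5 were all below 0, from -0.41 to -0.26 with fluoxetine and from -0.32 to -0.23 with lithium.

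Set directly against lithium, without the vehicle libraries, fluoxetine left 3 members lower, where 7.74% of all genes were lower and 6.18% higher. They were Flt1 (-0.20 ± 0.046, limma, adjusted p = 0.00217), Icam2 (-0.27 ± 0.072, adjusted p = 0.00787) and Esam (-0.18 ± 0.059, adjusted p = 0.0342). The Esam call was lost on leaving out any 1 of 7 libraries (HT fluoxetine male 4, HT lithium female 1, HT lithium male 1, WT fluoxetine female 2 or 4, WT fluoxetine male 3, WT lithium female 5), with adjusted p up to 0.0775. For Kdr (-0.01 ± 0.075), Pecam1 (0.01 ± 0.052), Cldn5 (-0.04 ± 0.061) and Rgs5 (-0.05 ± 0.059) the difference between the drugs was smaller than its standard error.

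Within strata the calls gathered in WT females, where both drugs were set against the same 5 vehicle libraries. That vehicle group had the highest mean of all groups for every member called here, with or without replicate 3. It is also the WT group of the genotype comparison in vehicle females, so these results are not independent. Whether the calls go with a high vehicle group or a larger drug difference was not tested. With fluoxetine, 5 members fell there, where 1.59% of all genes fell: Icam2 (-0.91 ± 0.142, limma, adjusted p = 6.47e-05), Cldn5 (-0.68 ± 0.120, adjusted p = 0.000398), Kdr (-0.64 ± 0.147, adjusted p = 0.00816), Flt1 (-0.54 ± 0.091, adjusted p = 0.000276) and Tek (-0.49 ± 0.107, adjusted p = 0.00471). The groups did not overlap for these 5 and Rgs5, as for 2.6% of all genes. Without the library labelled WT vehicle female replicate 3 the same 5 still passed, Cldn5 at -0.61 (adjusted p = 0.00293) and Icam2 at -0.87 (adjusted p = 0.000521). With lithium, 4 members fell in WT females, where 0.694% of all genes fell: Cldn5 (-0.56 ± 0.120, adjusted p = 0.0107), Tek (-0.46 ± 0.107, adjusted p = 0.0188), Flt1 (-0.35 ± 0.091, adjusted p = 0.0354) and Kdr (-0.55 ± 0.147, adjusted p = 0.0385). For Cldn5, Flt1, Kdr, Tek, Pecam1 and Icam2 the lithium and vehicle groups did not overlap, as for 3.22% of all genes. None of the 4 lithium calls passed without that library. Its removal left Cldn5 at -0.48 (adjusted p = 0.0712), Tek at -0.42 (adjusted p = 0.0831), Flt1 at -0.29 (adjusted p = 0.149) and Kdr at -0.51 (adjusted p = 0.136). The Flt1 call was also lost without any 1 of the 5 WT lithium females (adjusted p up to 0.0801), and the Kdr call without any of these or WT vehicle female replicate 2 or 4 (up to 0.0963).

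Markers of other cell types also differed in WT females. The red blood cell list had a median of -0.61 with fluoxetine and -0.75 with lithium, with 5 of 5 markers below 0 for each drug. The mural list had medians of -0.23 and -0.34 (13 and 15 of 16 below 0), and the oligodendrocyte list -0.25 and -0.53 (8 of 8 below 0 for each). The neuron list had a median of 0.17 with fluoxetine, 8 of 8 above 0, and 0.06 with lithium, 5 of 8 above 0. Without replicate 3 of the vehicle group the medians with fluoxetine and lithium were -0.43 and -0.56 for red blood cell, -0.13 and -0.24 for mural, -0.02 and -0.29 for oligodendrocyte and 0.03 and -0.03 for neuron markers, and -0.39 and -0.29 for the members. On that basis microglial markers were at -0.17 and -0.29 (6 and 8 of 8 below 0) and astrocyte markers at -0.05 and -0.11 (4 and 7 of 8). Fibroblast markers were then at 0.048 and -0.08, and choroid plexus markers at 0.50 and -0.09. The part of these cells in the members' differences was not tested.

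The other strata held few calls. In WT males with fluoxetine 0 members passed, where 0.85% of all genes passed, although the groups of Flt1, Icam2 and Rgs5 did not overlap, as for 1.98% of all genes. There 6 members had an unadjusted p under 0.05, as did 2948 of the 17875 genes tested, and edgeR called 0 and DESeq2 1 (Flt1). HT males with fluoxetine had Flt1 (-0.36 ± 0.091, limma, adjusted p = 0.0124) and Rgs5 (-0.41 ± 0.116, adjusted p = 0.0264) lower, where 3.16% of all genes were lower. The Flt1 call there was lost without HT fluoxetine male replicate 4 (adjusted p = 0.122) or HT vehicle male replicate 3 (adjusted p = 0.0731). The Rgs5 call was lost without either of these (0.18 and 0.121), HT fluoxetine male replicate 5 (0.0565) or HT vehicle male replicate 2 or 4 (0.0538 and 0.0549). In HT females 0 members and 0% of all genes passed with fluoxetine, and edgeR and DESeq2 called 0 members. There 2 members, Abcb1a and Rgs5, had an unadjusted p under 0.05, as did 1370 of the 17875 genes tested.

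Lithium in WT males left Tek lower (-0.44 ± 0.107, limma, adjusted p = 0.0401), where 0.185% of all genes were lower. That call was lost without any of WT lithium male replicates 1, 2 or 3 or WT vehicle male replicates 2, 3 or 5, with adjusted p up to 0.183. In HT females 0 members passed with lithium, where 2.98% of all genes passed, and in HT males 0, where 0.252% passed. The counts with an unadjusted p under 0.05 were 3 (Tek, Esam, Mfsd2a) and 1 (Cldn5), against 3631 and 2203 of the 17875 genes tested. By edgeR and DESeq2 0 members were called in both. When the average was taken over the 3 strata other than WT females, a split made after the values were seen, 3 members fell with fluoxetine: Flt1 (-0.28, adjusted p = 0.000731), Icam2 (-0.37, adjusted p = 0.00433) and Rgs5 (-0.32, adjusted p = 0.0025). With lithium it left Tek (-0.30, adjusted p = 0.000634), Rgs5 (-0.26, adjusted p = 0.00559) and Kdr (-0.24, adjusted p = 0.0437) lower, and Mfsd2a (0.24, adjusted p = 0.0176) and Esam (0.21, adjusted p = 0.0271) higher. For Mfsd2a and Esam, WT females were the only stratum below 0 with lithium, so the split itself favoured the higher values. The shares of all genes that passed in these averages over 3 strata are not given here, so the counts stand without a background.

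**Figure D3:**
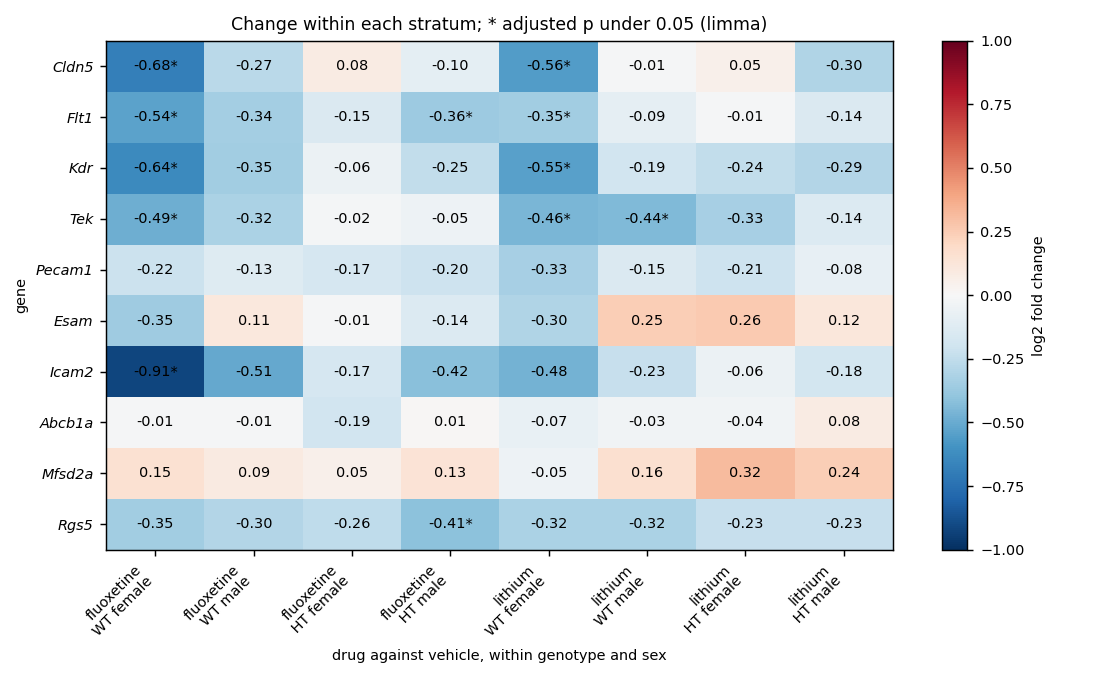
Log2 fold change of each member (rows) for fluoxetine and lithium against vehicle within the 4 genotype and sex strata (columns); blue is lower, red higher, and an asterisk marks an adjusted p under 0.05 (limma). The column of WT females with fluoxetine holds 5 asterisks and that of WT females with lithium 4; Rgs5 is below 0 in all 8 columns.

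The Ash1l genotype was accompanied by no call in this set on average. Over the 6 drug and sex strata 0 of the 10 members passed, where 0.358% of all genes passed, with values from -0.11 ± 0.048 for Rgs5 to 0.10 ± 0.059 for Icam2. Abcb1a and Rgs5 had an unadjusted p under 0.05, as did 1448 of the 17875 genes tested, and edgeR and DESeq2 called 0 members. In vehicle females Cldn5 was lower in HT mice (-0.40 ± 0.120, limma, adjusted p = 0.0356), where 1.67% of all genes were lower. Its HT counts were 1136, 900, 1083, 789 and 1294, against the WT counts given above, so that the highest HT library overlapped the WT group. The Cldn5 call was lost without the library labelled WT vehicle female replicate 3 (-0.33, adjusted p = 0.18), WT vehicle female replicate 4 (0.0547) or HT vehicle female replicates 2 (0.112) or 4 (0.189), and the value was -0.20 (adjusted p = 0.411) with the trend of GC content and gene length removed. Spearman's rho of the fold change with GC content over all genes was -0.52 in that comparison. All 10 members had values below 0 there, and Tek, whose HT and WT groups did not overlap (490 to 556 against 575 to 674, as for 1.54% of all genes lower), was at -0.23 (adjusted p = 0.189). Other lists were also below 0 in that comparison: 79 of the 99 other endothelial genes (median -0.16), 14 of 16 mural markers (median -0.32), 5 of 5 red blood cell markers (median -0.34) and 8 of 8 oligodendrocyte markers (median -0.55). Without replicate 3 of the WT group these medians were -0.09, -0.18, -0.18 and -0.30, and that of the members, 9 of 10 below 0, was -0.13 in place of -0.18. On that basis the medians were -0.19 for microglial (7 of 8 below 0), -0.10 for neuron (5 of 8) and -0.019 for astrocyte markers (4 of 8). Fibroblast and choroid plexus markers were then at 0.095 and 0.37. The part of other cells in these differences was not tested.

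Under fluoxetine Icam2 was higher in HT than in WT females, by 0.51 ± 0.142 (limma, adjusted p = 0.0411), where 1.37% of all genes were higher. The HT group ran from 54.7 to 108 and the WT group from 44.1 to 66.7, and the call was lost without any 1 of 6 of these 10 libraries (HT replicates 3, 4 and 5, WT replicates 2, 4 and 5), with adjusted p up to 0.201. In this comparison 7 members had an unadjusted p under 0.05 by limma: Cldn5, Flt1, Kdr, Tek and Icam2 higher in HT females, Abcb1a and Mfsd2a lower. Of the 17875 genes tested, 2784 had such a p. Icam2 alone passed by edgeR, and Icam2 and Cldn5 by DESeq2. In the other 4 strata 0 members passed between genotypes. The shares of all genes that passed were 0.00559% in vehicle males, 0.386% in fluoxetine males, 0.00559% in lithium females and 0.00559% in lithium males. Members with an unadjusted p under 0.05 were Tek in vehicle males, and Cldn5 and Rgs5 in fluoxetine males, with 0 by edgeR and DESeq2 in each of the 4. Of 17875 genes, 1240 had such a p in vehicle males, 2782 in fluoxetine males, 1367 in lithium females and 662 in lithium males. The Icam2 counts of lithium-treated HT females (80.9 to 88.2) all lay above those of lithium-treated WT females (61.7 to 78.5), as for 2.05% of all genes.

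Between the sexes 0 members passed over the 6 genotype and drug strata, where 0.117% of all genes passed. The values farthest from 0 were 0.22 ± 0.059 for Icam2 (female minus male, limma, adjusted p = 0.121) and 0.13 ± 0.049 for Cldn5 (adjusted p = 0.278), the members with an unadjusted p under 0.05, and edgeR and DESeq2 called 0. Of the 17875 genes tested, 2209 had an unadjusted p under 0.05 there. None of the 5 interactions called a member by limma or edgeR. The genotype effect in vehicle mice differed between females and males by -0.50 ± 0.169 for Cldn5 (adjusted p = 0.0797) and -0.50 ± 0.164 for Esam (adjusted p = 0.0715), where 2.9% of all genes passed, and DESeq2 called both. The fluoxetine effect differed between HT and WT mice by 0.47 ± 0.120 for Cldn5 (adjusted p = 0.112), 0.37 ± 0.107 for Tek (adjusted p = 0.139) and 0.42 ± 0.142 for Icam2 (adjusted p = 0.204), where 0.0392% of all genes passed and DESeq2 called Cldn5. In that interaction 5 members had an unadjusted p under 0.05, as did 2231 of the 17875 genes tested. Sex by fluoxetine called 0 members (0.425% of all genes), genotype by lithium 0 (0%) and sex by lithium 0 (0%), each with 0 members under an unadjusted p of 0.05 and 0 by DESeq2. Of 17875 genes, 2041, 1700 and 1041 had such a p in turn. These interactions do not set WT females alone against the other 3 strata.

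Other endothelial genes, in 5 lists with 99 genes besides the members, were also tested. With fluoxetine 32 of the 99 fell and 1 rose (median log2 fold change -0.12), where 6.6% of all genes fell and 6.94% rose. With lithium 26 fell and 6 rose (median -0.10), where 5.74% of all genes fell and 7.39% rose. These shares also apply to the counts in each list below. In the VEGF and angiopoietin list of 12, fluoxetine left the phosphatase gene Ptprb (-0.21 ± 0.050, limma, adjusted p = 0.0035), Tie1 (-0.21, adjusted p = 0.0225), the VEGF co-receptor Nrp1 (-0.14, adjusted p = 0.0326) and Vegfa itself (-0.15, adjusted p = 0.0376) lower, and the Flt1 ligand Pgf higher (0.35 ± 0.088, adjusted p = 0.00587). Lithium left the Tek ligand Angpt1 (-0.34 ± 0.070, adjusted p = 0.000647), Vegfc (-0.25, adjusted p = 0.0127), Ptprb (-0.16, adjusted p = 0.0246) and Tie1 (-0.18, adjusted p = 0.0495) lower, and Nrp1 higher (0.13, adjusted p = 0.0458). Directly between the drugs, 7.74% of all genes were lower with fluoxetine and 6.18% higher. Of the 12 there, 3 were higher with fluoxetine, Vegfc (0.43 ± 0.070, adjusted p = 1.43e-05), Vegfd (0.33, adjusted p = 0.0339) and Angpt1 (0.20, adjusted p = 0.0447), and Nrp1 was lower (-0.27 ± 0.046, adjusted p = 3.35e-05).

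Among 16 further junction and adhesion genes, 5 fell with fluoxetine and 6 with lithium, and none rose. The adherens junction cadherin Cdh5 fell by 0.25 (± 0.054, limma, adjusted p = 0.0016) and 0.26 (± 0.055, adjusted p = 0.000853), the sialomucin Emcn by 0.39 (adjusted p = 5.22e-05) and 0.24 (adjusted p = 0.012), the scaffold Tjp1 by 0.18 and 0.11, and Jam2 by 0.24 and 0.27, each with fluoxetine and lithium in turn. Ocln fell with fluoxetine only by this test (-0.21), and between the drugs it was lower with fluoxetine (-0.18, adjusted p = 0.0234), while Vcam1 was higher (0.17, adjusted p = 0.0362). Vcam1 (-0.21) and F11r (-0.18) passed with lithium. Of 20 further transport genes 5 fell with fluoxetine and 6 with lithium. The largest were shared: the lactate carrier Slc16a1 (-0.41 ± 0.042, adjusted p = 1.92e-09, and -0.41 ± 0.043, adjusted p = 4.49e-09), the zinc and manganese carrier Slc39a8 (-0.43 with each drug), the glutamine carrier Slc38a5 (-0.52 and -0.45) and the caveolar protein Cav1 (-0.39 and -0.38). Slc7a1 (-0.20) passed with fluoxetine, and the difference between the drugs was -0.17 (adjusted p = 0.00121). Abcc4 (0.26, adjusted p = 0.000252) and Lrp1 (0.31, adjusted p = 0.00183) rose with lithium.

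In the list of 26 endothelial transcription factors and barrier Wnt genes, 11 fell with fluoxetine and 7 with lithium, and none rose. The ETS factors Fli1 (-0.41 ± 0.071, limma, adjusted p = 5.69e-05, and -0.26, adjusted p = 0.0124) and Ets1 (-0.27 and -0.25), the forkhead factor Foxf2 (-0.41 and -0.23) and the Wnt effector Lef1 (-0.45 ± 0.082, adjusted p = 0.000119, and -0.40, adjusted p = 0.000689) fell with fluoxetine and lithium in turn. Sox7 and Foxq1 (-0.40 each) were among those that fell with fluoxetine. Ctnnb1, which encodes beta-catenin, fell with lithium (-0.22 ± 0.028, adjusted p = 6.11e-07), as did the Wnt target Apcdd1 (-0.21) and the barrier ligand Ndp (-0.22), and Ctnnb1 was 0.23 higher with fluoxetine than with lithium (adjusted p = 2.89e-08). Klf4 (-0.38 ± 0.084, adjusted p = 0.00111), Sox18 (-0.38) and Sox7 (-0.32) were lower with fluoxetine than with lithium. Of 25 other endothelium-enriched genes, 7 fell with fluoxetine, among them Itm2a (-0.25) and Nostrin (-0.41). With lithium 3 fell, Ecscr (-0.38), Clec14a (-0.36) and Itm2a (-0.26), and 3 rose, Robo4 (0.26), Ly6c1 (0.16) and Ly6e (0.15). Between genotypes, averaged over strata, Ndp (0.24, adjusted p = 0.0122) was the only 1 of the 99 to pass, where 0.358% of all genes passed.

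Markers of other cell types were tested in the same way. Of 16 further mural markers, 1 fell and 2 rose with fluoxetine, where 6.6% of all genes fell and 6.94% rose: the pericyte gene Atp13a5 (-0.20 ± 0.046, limma, adjusted p = 0.00239) was lower, and Cspg4 (0.23, adjusted p = 0.0238) and Pdgfrb (0.18, adjusted p = 0.0276) higher. With lithium Atp13a5 (-0.18), Notch3 (-0.26) and Cnn1 (-0.43) fell, where 5.74% of all genes fell and 7.39% rose. The summed mural count ran from 4772 to 9927 with vehicle, 4912 to 7489 with fluoxetine and 5542 to 7123 with lithium, and no mural marker was at 0. The astrocyte water channel Aqp4, placed on endfeet around vessels, fell by 0.31 (adjusted p = 0.000908) and 0.42 (adjusted p = 1.53e-05), and Gja1 by 0.18 and 0.21, with fluoxetine and lithium in turn. Over the 8 astrocyte markers 2 fell with fluoxetine, and 4 fell and 1 rose (Aldoc, 0.20) with lithium, while the summed count ran from 109394 to 178498, 111384 to 162522 and 132216 to 161598 with vehicle, fluoxetine and lithium. The part of these cells in the members' changes was not tested.

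Of 10 fibroblast markers 0 passed with fluoxetine and 4 fell with lithium (Col3a1 -0.38, Dcn -0.38, Igf2 -0.26 and Col1a1 -0.35), with summed counts of 15851 to 37899 with vehicle, 21008 to 38445 with fluoxetine and 19151 to 32226 with lithium. The microglial receptor P2ry12 fell with both drugs (-0.21, limma, adjusted p = 0.0291, and -0.38, adjusted p = 8.94e-05), and with lithium Cx3cr1 (-0.16) fell and C1qb (0.12) rose among the 8 microglial markers. Their summed counts were 8871 to 12223, 8437 to 11521 and 7776 to 11065. Red blood cell markers, a measure of blood left in the vessels, gave 0 of 5 calls with either drug, with medians of -0.21 and -0.01. The lithium average joined strata of opposite sign, with medians of -0.75 in WT females, 0.32 in WT males, -0.03 in HT females and 0.47 in HT males. The red blood cell summed counts were 5506 to 20205, 4755 to 17389 and 5107 to 21631 with vehicle, fluoxetine and lithium. The neuron and oligodendrocyte lists, 8 markers each, and 6 tested choroid plexus markers also gave 0 calls with either drug by limma. Of these genes, and the red blood cell and fibroblast markers that gave 0 calls, the neuronal Slc17a7 had an unadjusted p under 0.05 with both drugs, Col3a1 with fluoxetine and Aqp1 with lithium. Over all 17875 genes tested, 5016 with fluoxetine and 4862 with lithium had such a p. The choroid plexus genes Otx2 and Ttr were at 0 in 13 and 2 libraries, and no other marker on the lists reached 0.

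**Figure D4:**
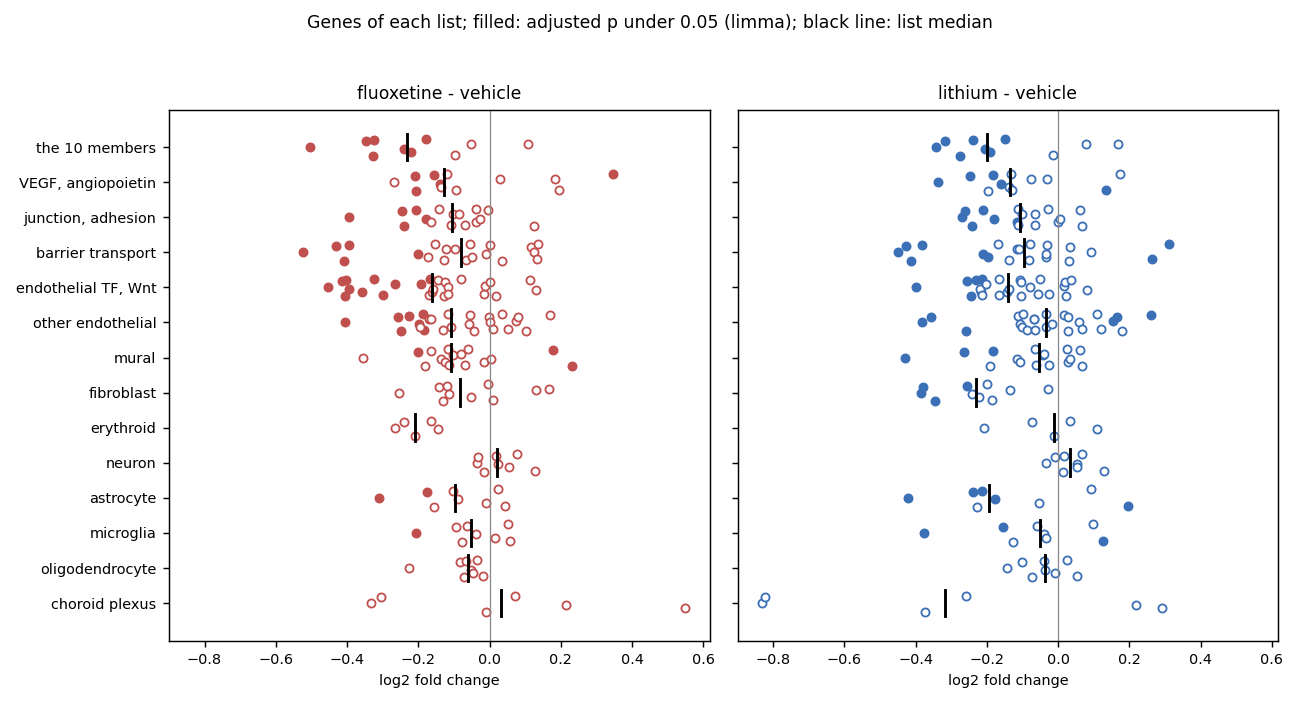
Log2 fold change of every tested gene of 14 lists (rows) for fluoxetine (left) and lithium (right) against vehicle, averaged over 4 strata; filled points passed an adjusted p of 0.05 (limma) and the black bar is the list median. The members' bar lies at -0.23 and -0.20, the bars of the 5 other endothelial lists between -0.16 and -0.03, and the neuron bar at 0.02 and 0.03. The red blood cell (erythroid) bar lies close to the members' bar with fluoxetine but not with lithium.

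Within groups the members varied together only in part. After the group means were removed, the 45 pairs of members had a median Pearson correlation of 0.23 over the 59 libraries, as a description with no test. The highest was 0.58 between Pecam1 and Rgs5, an endothelial and a mural gene, followed by 0.54 between Cldn5 and Esam and between Flt1 and Rgs5. The lowest was -0.29 between Tek and Mfsd2a. Against the mean of the other 9, Rgs5 was highest (Pearson 0.57, Spearman 0.58) and Mfsd2a lowest (0.17 and 0.19). Without the library labelled WT vehicle female replicate 3, over 58 libraries, the Pearson values were 0.58 for Rgs5 and 0.057 for Mfsd2a, the median pair was at 0.21, and Tek with Mfsd2a was at -0.38. The libraries share depth scaling and the dissected tissue, so these values also hold whatever varied between dissections.

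**Figure D5:**
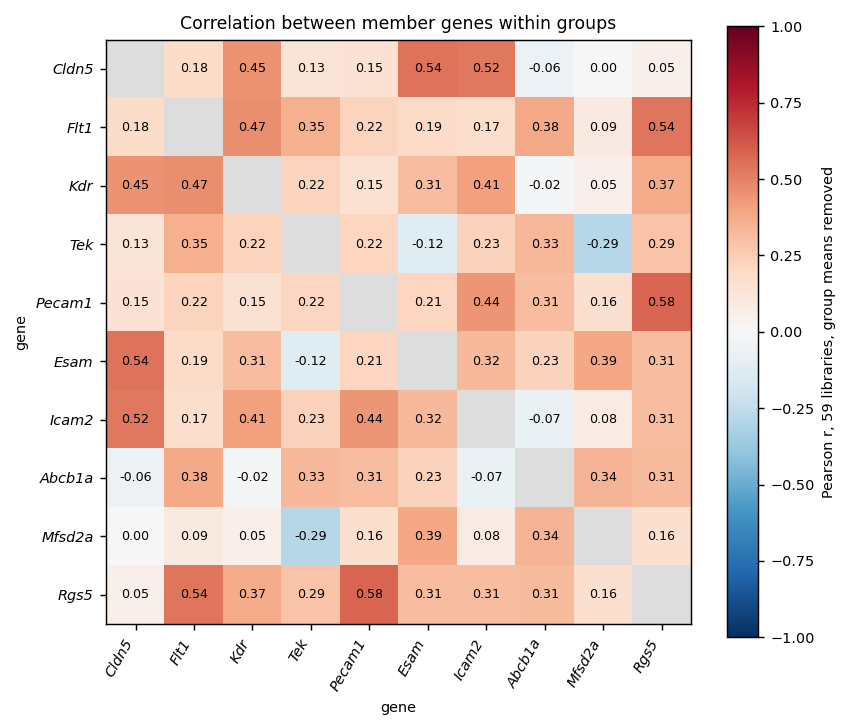
Pearson correlation between each pair of members over 59 libraries after removal of group means, from blue (negative) to red (positive). The strongest cells are Pecam1 with Rgs5 (0.58) and Cldn5 with Esam (0.54); the row of Mfsd2a holds the lowest value, -0.29 with Tek.

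Among all other genes tested, those most like the mean of the members by the same measure were Olfml3 (Pearson 0.74, Spearman 0.82), Grap (0.74 and 0.75), the apelin receptor Aplnr (0.70 and 0.75), Vwa1 (0.70 and 0.68) and Casq2 (0.70 and 0.64). Cd93 (0.69), Arap3 (0.67), Itm2a (0.67), Slc38a5 (0.67) and Eng (0.67) followed, and the median over all genes was -0.018. Without replicate 3 of the WT vehicle females, Olfml3 (0.78), Grap (0.77), Aplnr (0.73), Cd93 (0.72) and Casq2 (0.67) remained among the 10 highest, and Vwa1 (0.65), Arap3 (0.66), Itm2a (0.64), Slc38a5 (0.64) and Eng (0.63) did not. Single members had their own nearest genes. These were Vwa1 for Cldn5 (0.82), Itga1 for Rgs5 (0.80), Ucp2 for Mfsd2a (0.79), Grap for Esam (0.74), Ets1 for Kdr (0.70), Il10rb for Tek (0.68) and Lef1 for Flt1 (0.67). For Pecam1 (Tagln2), Icam2 (Xbp1) and Abcb1a (Cldn2) the nearest gene reached 0.62. The Spearman values were lower for some, 0.48 for Cldn2 with Abcb1a, 0.50 for Xbp1 with Icam2 and 0.54 for Lef1 with Flt1. Without that library Vwa1, Ets1, Grap and Itga1 stayed nearest to Cldn5, Kdr, Esam and Rgs5, and the other 6 members had another nearest gene; Cldn2 then ranked 8 for Abcb1a (Pearson 0.57).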

How the data were processed

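RNA sequencing counts of 59 mouse prefrontal cortex libraries were analysed from 1 deposited table. Its values are a signal per gene and library, which the authors made by dividing read counts by a size factor per library; the step between values shows this, and no label states it. Per the submitters' processing notes, the tools were DESeq2 1.19.11, Salmon 0.11.2 and R 3.6.0, and the build was GRCm38, with no role or order given. Libraries came from a stranded poly(A) kit, per the labels' protocols. Dividing by the smallest step gave whole reads for 100% of values within a tolerance of 0.01. Positions and exon lengths are from GENCODE M21 on GRCm38.

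A gene was tested if its value reached 10 in 5 libraries, which left out 213 of 18088. The test was limma 3.58.1 in R 4.3.3 on log2(normalised count + 1), with the prior variance following mean level and robust to outlying genes, fitted to all libraries with 1 mean per group, for 24 comparisons. The Benjamini-Hochberg adjustment covered the 17875 genes tested, with a threshold of 0.05. The fold changes are on the log2(value + 1) scale, which understates changes of low genes. Groups came from the titles; all samples were used. On simulated counts of 17875 genes the fluoxetine average recovered 31, 45 and 50 of 50 genes changed 1.25-, 1.5- and 2-fold with 11 false calls, and HT against WT in vehicle females 15, 38 and 48 with 5. These counts were drawn independently for each gene around 1 common profile, with no GC trend, dissection difference or unusual library. They therefore do not measure recovery or false calls in the real libraries.

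The alternatives were a pseudocount of 10, no filter, a filter of 50 in every library, a replicate block, removal of the GC content and length trend, only the libraries compared, leaving out libraries or strata (the strata, and the orders, correlations and list medians without 1 library, chosen after seeing the data), and edgeR 4.0.16 and DESeq2 1.42.0 on the recovered reads. The members and lists were chosen with earlier results of these data known. Genes named are the 10 members, Ash1l, up to 6 genes per list and comparison past the threshold by smallest p, the 10 genes most correlated with the members' mean, and the nearest gene of each member; Abcb1b, Otx2 and Ttr were added after their values were seen.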

Additional observations from a re-analysis of the deposited data

Results flagged for a closer look

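Within each group the highest or lowest library was compared with the others. A library was noted where its gap to the nearest other library took more of the group's range than Dixon's 95% critical value allows. Of 132 such tests (the 10 members and Ash1l in 12 groups), 12 met this, where chance gives about 1 in 20.

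In WT vehicle females, replicate 3 stood apart for 3 genes. Its Ash1l count of 3557 lay below the group (median 4748), and its Cldn5 count of 1654 (median 1295) and Flt1 count of 2372 (median 1944) lay above it. WT vehicle male replicate 2 was low for Cldn5 at 709 (median 1048) and for Esam at 272 (median 452). WT lithium female replicate 4 was low for Icam2 at 61.7 (median 76.9) and for Kdr at 470 (median 667). Kdr was noted in 3 more groups, high in HT fluoxetine male replicate 1 at 818 (median 587) and HT vehicle male replicate 2 at 1076 (median 696), and low in HT vehicle female replicate 4 at 548 (median 848). Tek was high in HT lithium female replicate 4 at 513 (median 387). Ash1l was high in HT fluoxetine female replicate 1 at 4021 (median 3903).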

How the results depend on the processing

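Of the 31 calls of members in 9 comparisons, recomputed under alternatives, 1092 of 1171 values stayed past the threshold, 79 were lost and 0 reversed. Most of these values are refits of averages without 1 library, which overlap and are not independent. Calls within strata varied more: Tek with lithium in WT males was lost in 11 of 20 alternatives, and Kdr with lithium in WT females in 10 of 20. Cldn5 between genotypes in vehicle females was lost in 8 of 20, and the fluoxetine calls in WT females in 0. In 11 of the 24 comparisons no fit called a member. The averages kept 7 calls for fluoxetine on leaving out any library, and 6 to 8 for lithium. Without the WT female stratum fluoxetine had 3, and without the HT male stratum lithium had 4, with no share of all genes given for these averages. Leaving out the WT female stratum cost lithium the calls of Cldn5, Flt1, Pecam1 and Icam2. Tek, Rgs5 and Kdr stayed lower with lithium there, and Mfsd2a and Esam were added as higher. The same leave-one-out gave 5 to 6 for fluoxetine and 0 to 5 for lithium in WT females, 0 to 1 for both drugs in WT males, 0 to 3 for fluoxetine in HT males, 0 to 1 for lithium in HT females, 0 to 2 for genotype in vehicle and in fluoxetine females, 0 to 2 for genotype by sex and 0 to 1 for genotype by fluoxetine. In comparisons that otherwise called 1 or 0 members, other settings gave these counts. Genotype in vehicle females called 2 with the stricter filter and DESeq2, and 0 after removing the trend of GC content and gene length (with or without the replicate block), without WT vehicle female 3 and WT vehicle male 2, or with only the libraries compared. Genotype in fluoxetine females called 2 with the trend removed (either way), without those 2 libraries, or by DESeq2, and 0 with the stricter filter, which left Icam2 out, or only the libraries compared. Fluoxetine in WT males called 1 with the stricter filter, the replicate block, the trend removed (either way) or DESeq2. Lithium in WT males called 0 with the block, the trend removed, without those 2 libraries, or with only the libraries compared. Genotype by sex called 2 by DESeq2, and genotype by fluoxetine 1 by DESeq2 and 1 without those 2 libraries. With only the libraries compared, fluoxetine in HT males called 0 and lithium in WT females 1; without those 2 libraries lithium in WT females called 1. Except where a setting tests fewer genes or samples, the cause was not tested. The numbers in the titles showed no pairing of libraries on average. Between groups, residuals correlated at a mean of -0.0112 for the same number (-0.40 to 0.37) and 0.0028 for different numbers (-0.46 to 0.45). A mean over all groups cannot exclude pairing within some of them. The block also moved Tek in WT lithium males from an adjusted p of 0.0401 to 0.0521. Icam2 has the fewest reads of the members, which limits its precision.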
